A study of Mus musculus with 37 samples.

Results

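The genes described here are 42 genes of the extracellular matrix and surface of fibroblasts, followed in mouse embryos made by nuclear transfer. Members were the probes whose annotated symbol is on the list and whose detection p-value was below 0.05 on at least 2 arrays. On the first version of the mouse bead array 27 of the 42 genes had such a probe, out of 8158 genes tested, and on the second version 13 did, out of 7131. All 13 were also among the 27 and were read by the same probe. Fbln5 had a probe on both versions that was not detected often enough, Col6a2 had one only on the second version with the same outcome, and 13 genes had no named probe on either version (Col1a1, Col5a2, Col4a2, Fn1, Fbn1, Lum, Bgn, Sparc, Timp1, Lox, Serpinh1, Vim and Pdgfrb).

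Dermal fibroblasts build the connective tissue of the skin. They secrete fibrillar collagens, elastic fibre proteins and proteoglycans, trim and cross-link them outside the cell with proteases and oxidases, and carry surface proteins such as Thy1. A cleavage-stage embryo lies inside the zona pellucida and makes little interstitial matrix, and RNA in it can come from the donor nucleus, the donor cell or the egg's own store.

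The samples were mouse throughout, with RNA amplified and labelled with biotin, and embryos cultured in KSOM medium. Anaphase NT embryos (2 samples, numbered 15 and 19) and prometaphase NT embryos (2 samples, 27 and 28) were nuclear transfer (NT) embryos made at that phase of mitosis, with tail tip cells in interphase as donors. The donor cells were represented by 3 samples of tail tip fibroblasts from 129xB6 F1 mice, and the controls by 2 samples of 2-cell embryos. Labels of the transfer, 2-cell and cleavage-inhibited samples that carry a time give 22 to 24 h. Uncleaved embryos of the same age (cleavage-inhibited, 2 samples), M-phase zygotes (3) and interphase zygotes (3) were on the same array version. The second version held blastomere NT embryos (3 arrays, 14 h after transfer, donor cell not named in the labels), oocyte NT embryos made from MII oocytes and interphase tail tip fibroblasts (2 samples, 2 d), 1 sample of parthenogenetic embryos (2 d), MII oocytes (2) and 4-cell controls (2, 14 h after release from a mitotic block). Embryos developing without a genome for 1 d, and embryos made with embryonic stem (ES) cell nuclei in interphase zygotes, had 1 array on each version. Sex, number of embryos pooled and the strain of the recipient eggs are details that the sources used here do not give. The labels call the second sample of several groups, the anaphase, prometaphase and 2-cell ones among them, a biological duplicate without naming animals or days, and a p-value here covers sample-to-sample scatter only, part of which may be technical.

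Levels are log2 normalized intensities, on which the lowest signal called detected lay between 4.47 and 6.53 on arrays of the first version and between 5.78 and 6.58 on those of the second. Between 18.8 and 45.7% of probes were detected on arrays of the first version and between 33.8 and 44% on those of the second. The pair of anaphase NT samples were unlike each other (r = 0.832 over probes detected in both), and blastomere NT arrays 1 and 3 were so alike (r = 0.996) that they were averaged and counted as 1 sample. All 27 kept genes were detected on all 3 fibroblast arrays, which the detection filter in part fixed, since some passed it through those arrays alone. Macrophage markers were present as well, with 9 to 10 of 10 detected in fibroblasts (summed linear intensity 13000 to 13300, against 33.1 to 74.2 in 2-cell controls). None of 3 keratinocyte markers was detected in fibroblasts.

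The upstream sequences of 5 collagen, protease and binding protein genes are shown for the following reasons. The first 4 were among the members higher in anaphase NT embryos while dark in 2-cell controls. The fifth, Col1a2, is a major fibrillar collagen that was dark in every embryo sample of the first array version. Each sequence is the 250 bases before an annotated transcription start in RefSeq (GRCm38.p6). It is read 5′ to 3′ on the gene's own strand, the plus strand in all 5. They lie at chr2:27886175-27886424, chr14:54431348-54431597, chr11:99040994-99041243, chr1:45311288-45311537 and chr6:4505368-4505617. Capitals mark matches on either strand to the letters TATAAA, the core of the TATA element. They also mark CCAAT, the recognition letters of factor NF-Y, and in the same way GGGCGG, which Sp family factors bind. In Mmp14 a CCAAT match and a GGGCGG match overlap.
Col5a1: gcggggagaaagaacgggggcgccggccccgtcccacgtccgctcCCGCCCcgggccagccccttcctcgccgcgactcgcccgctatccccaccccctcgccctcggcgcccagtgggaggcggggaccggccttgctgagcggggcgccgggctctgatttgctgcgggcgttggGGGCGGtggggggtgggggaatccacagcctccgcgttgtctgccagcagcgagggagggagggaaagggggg
Mmp14: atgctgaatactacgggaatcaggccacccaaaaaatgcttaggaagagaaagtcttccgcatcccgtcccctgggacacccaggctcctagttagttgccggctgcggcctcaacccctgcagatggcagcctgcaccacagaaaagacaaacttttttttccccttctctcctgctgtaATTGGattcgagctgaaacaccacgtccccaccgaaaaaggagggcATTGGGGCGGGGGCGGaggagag
Igfbp4: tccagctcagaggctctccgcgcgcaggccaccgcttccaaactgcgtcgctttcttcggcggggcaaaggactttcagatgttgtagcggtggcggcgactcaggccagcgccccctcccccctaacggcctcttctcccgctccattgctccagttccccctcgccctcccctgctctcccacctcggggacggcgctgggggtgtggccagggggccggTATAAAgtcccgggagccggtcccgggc
Col3a1: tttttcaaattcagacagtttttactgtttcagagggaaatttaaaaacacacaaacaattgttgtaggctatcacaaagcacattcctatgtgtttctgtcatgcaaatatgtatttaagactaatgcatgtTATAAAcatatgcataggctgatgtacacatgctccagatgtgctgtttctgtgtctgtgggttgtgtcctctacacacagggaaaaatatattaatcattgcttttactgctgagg
Col1a2: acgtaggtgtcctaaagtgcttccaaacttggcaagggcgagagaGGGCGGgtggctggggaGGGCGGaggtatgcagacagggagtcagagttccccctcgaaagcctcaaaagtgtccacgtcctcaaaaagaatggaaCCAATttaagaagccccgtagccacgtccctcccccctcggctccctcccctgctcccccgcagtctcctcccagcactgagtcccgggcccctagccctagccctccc

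Of the kept members, 20 had an entry in the promoter table. TATAAA stood in 25.0% of these 20 genes and in 14.3% of all 27025 genes of the table, CCAAT in 25.0 and 37.5%, and GGGCGG in 60.0 and 35.4%. The letters TGANTCA (AP-1 element) and CAGACA (Smad element), counted but not capitalised, stood in 2 and 8 of the 20 genes and in 7.8 and 19.3% of all genes. All 5 motifs and the genes shown were chosen after values of these data were seen. The Igfbp4 window holds TATAAA starting 28 bases before the start site, whereas the Col3a1 match lies 117 bases before it. Col5a1 holds 2 GGGCGG matches and no TATAAA. Matches are a description of these windows only.

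In the donor cells, all 27 members were higher than in 2-cell controls by limma's moderated test with Benjamini-Hochberg adjustment over all genes, where 25.6% of all genes tested were called higher. Their median log2 difference was 6.33, against -0.07 over all genes. The list was drawn up as fibroblast genes, so this count describes the material and is no independent result. It also rests on the brightest probe of each gene. A dimmer Fbln2 probe (0.46, adjusted p = 0.163, limma) and a dimmer Tnc probe (0.24, adjusted p = 0.115, limma) did not pass. Neither of these dimmer probes passed for either transfer type against fibroblasts. Gas6, a ligand of TAM receptor kinases, had levels of 12.55, 13.04 and 12.74 in fibroblasts and was not detected in 2-cell controls (4.27 and 4.40), at least 274-fold higher (adjusted p = 1.13e-09, limma). Fmod and Postn, a proteoglycan and a matricellular protein, were the dimmest in fibroblasts, with 5.30 to 5.67 and 5.14 to 5.75.

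**Figure D1:**
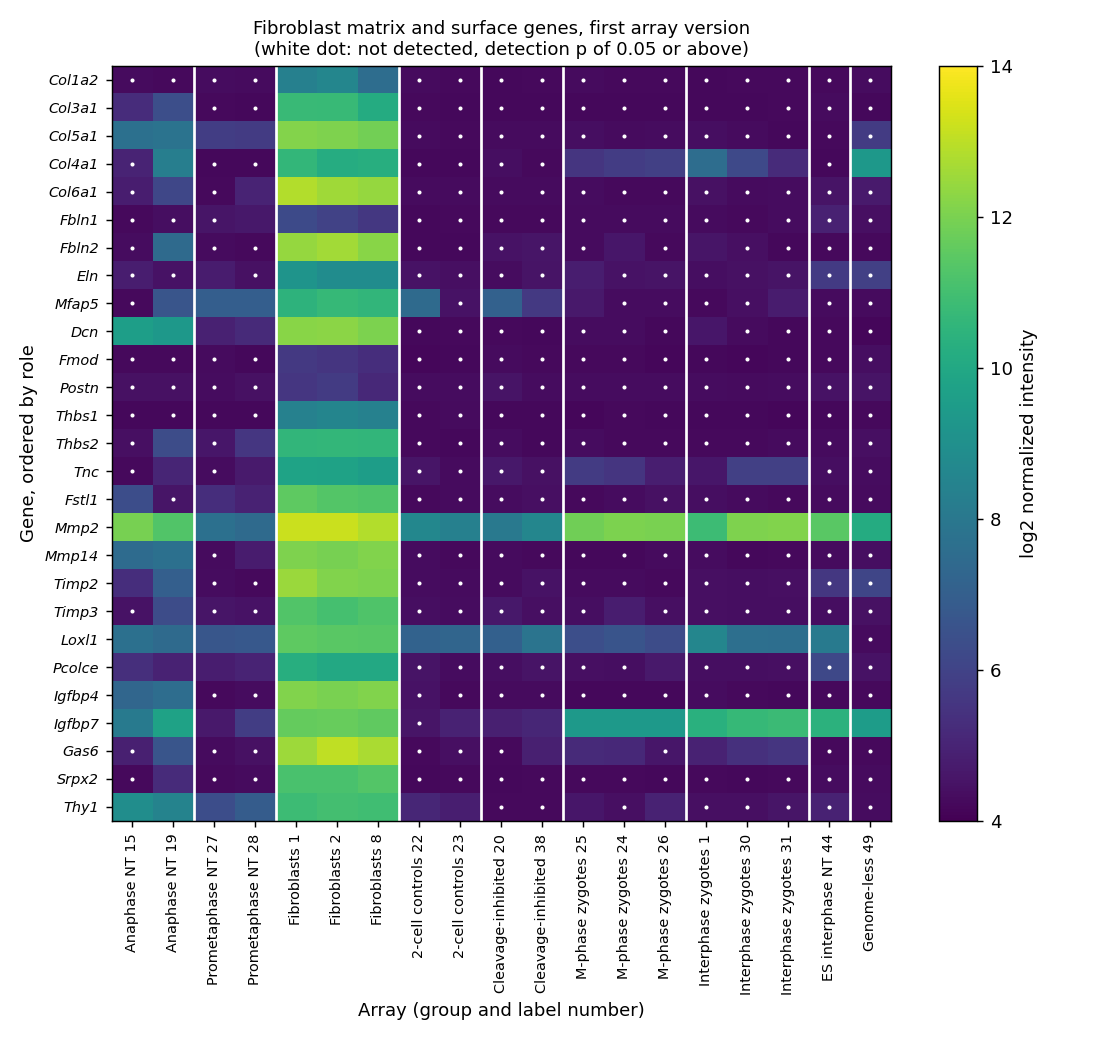
Log2 normalized intensity of the 27 members (rows, ordered by role) on each array of the first version (columns, by group), with repeat hybridizations left out; a white dot marks a probe not detected on that array. Fibroblasts are bright in every row, anaphase NT samples in a subset, and Mmp2 and Igfbp7 are also bright in zygotes.

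In anaphase NT embryos part of these genes lay above 2-cell controls, and the source of that RNA was not tested. Against 2-cell controls 14 of 27 members were higher and 0 lower, where 17.1% of all genes were called higher and 18.5% lower, and the median member difference was 1.17 on the log2 scale against 0.04 over all genes. The members higher were Col3a1, Col5a1, Col4a1, Col6a1, Dcn, Fstl1, Mmp2, Mmp14, Timp2, Pcolce, Igfbp4, Igfbp7, Gas6 and Thy1. All 27 stayed below the fibroblast level, where 28.6% of all genes were called lower, with a median difference of -4.45. In bulk samples, fewer cells of a type and less RNA per cell cannot be told apart. Levels were normalized between arrays, so they and the shares below are relative within a sample and are not amounts per cell.

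Among the fibrillar collagens, Col5a1, a chain of type V collagen that nucleates fibrils, had levels of 7.68 and 7.81 in anaphase NT, 5.83 and 5.73 in prometaphase NT and 11.88 to 12.13 in fibroblasts, and was not detected in 2-cell controls (4.28 and 4.27). Both transfer types lay clear of the controls, and the anaphase samples lay above the prometaphase samples. The lower bound of the difference over 2-cell controls was 8.36-fold in anaphase NT (adjusted p = 1.63e-07, limma) and 2.14-fold in prometaphase NT (adjusted p = 0.00217, limma).

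Col3a1, the main chain of type III collagen, was at 5.28 and 6.40 in anaphase NT and 10.15 to 10.79 in fibroblasts. It was not detected in prometaphase NT or 2-cell controls, and anaphase NT was at least 2.23-fold above 2-cell controls (adjusted p = 0.00116, limma). A second, dimmer Col3a1 probe gave a difference of 0.11 that did not pass (adjusted p = 0.305, limma). Col1a2, a chain of type I collagen, behaved otherwise: it was read at 7.59 to 8.58 in fibroblasts and was not detected on any transfer or embryo array of the first version.

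Collagen types IV and VI form basement membrane sheets and beaded microfibrils. Col4a1 was at 8.28 in anaphase NT sample 19 but not detected in sample 15 (4.99), prometaphase NT or 2-cell controls. With sample 15 taken as read, anaphase NT was 3.88-fold above the lowest detected signal of 2-cell controls (adjusted p = 0.0338, limma). Col6a1, with 12.42 to 12.84 in fibroblasts, was detected in anaphase NT sample 19 (6.15) and prometaphase NT sample 28 and not in their partner samples. For Col6a1 the same measure gave 1.72-fold in anaphase NT (adjusted p = 0.0253, limma). Both calls therefore rest on 1 of 2 anaphase samples.

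The small proteoglycan Dcn, which coats collagen fibrils and restrains their growth, showed the widest gap between anaphase NT embryos and 2-cell controls among the 27. Its levels were 9.61 and 9.32 in anaphase NT, 4.94 and 5.21 in prometaphase NT and 12.01 to 12.27 in fibroblasts, and it was not detected in 2-cell controls (4.22 and 4.24). No group overlapped another, and anaphase NT was at least 27.5-fold above 2-cell controls (adjusted p = 1.75e-08, limma). These values are those of the brighter of 2 Dcn probes. The other gave a fitted log2 difference over 2-cell controls of 1.48 ± 0.22 (SE) in anaphase NT (adjusted p = 0.000166, limma) and 5.65 ± 0.20 in fibroblasts, so the size of the anaphase difference depended on the probe. In prometaphase NT the other probe gave 0.03 (adjusted p = 1, limma). In prometaphase NT, Dcn was detected in both samples without passing the test (adjusted p = 0.116, limma). Fmod, the other proteoglycan measured, was not detected in either transfer type.

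Of 4 proteases and inhibitors, 3 were higher in anaphase NT. Mmp14, the membrane-bound collagenase that activates pro-MMP2, was at 7.49 and 7.70 in anaphase NT and 11.96 to 12.09 in fibroblasts, and not detected in 2-cell controls, at least 7.52-fold higher in anaphase NT (adjusted p = 3.26e-07, limma). Mmp2, the gelatinase it activates, had 11.93 and 11.27 in anaphase NT, 7.70 and 7.45 in prometaphase NT, 12.84 to 13.2 in fibroblasts and 8.63 and 8.35 in 2-cell controls. Anaphase NT held Mmp2 at 3.12 ± 0.37 (SE) above 2-cell controls on the log2 scale (adjusted p = 2.41e-05, limma).

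Timp2, an inhibitor of these proteases, was at 5.30 and 7.04 in anaphase NT and 12.02 to 12.48 in fibroblasts, and was not detected in prometaphase NT or 2-cell controls. The bound for anaphase NT over 2-cell controls was 2.79-fold (adjusted p = 0.00282, limma). Timp3, a matrix-bound inhibitor, was detected at 6.32 in anaphase NT sample 19 alone of the 4 transfer samples and did not pass (adjusted p = 0.0686, limma).

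Binding proteins and ligands gave 3 of 4 members higher in anaphase NT. Igfbp4, which holds insulin-like growth factors outside the cell, was at 7.31 and 7.58 in anaphase NT and 12 to 12.12 in fibroblasts. It was not detected in prometaphase NT (4.26 and 4.34) or 2-cell controls (4.48 and 4.25), and anaphase NT lay at least 6.78-fold above 2-cell controls (adjusted p = 3.43e-07, limma). Igfbp7, a secreted protein of vessel walls and matrix, was at 8.13 and 9.76 in anaphase NT, 4.69 and 5.81 in prometaphase NT, 11.57 to 11.66 in fibroblasts and 4.56 and 4.94 in 2-cell controls. Its anaphase difference over 2-cell controls was 4.19 ± 0.45 (SE) on the log2 scale (adjusted p = 1.05e-05, limma), while the prometaphase samples straddled the upper control.

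Gas6 was detected in anaphase NT sample 19 (6.63) and not in sample 15 (4.88). With sample 15 taken as read, the group was 2.10-fold above the lowest detected signal of 2-cell controls (adjusted p = 0.0285, limma). Srpx2, a secreted ligand of the urokinase receptor, was at 11.14 to 11.32 in fibroblasts, yet its only detected transfer sample was anaphase NT 19 (5.22), and the difference did not pass (adjusted p = 0.146, limma).

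Thy1, the GPI-anchored surface glycoprotein used to sort fibroblasts, was the single surface gene measured. It had 8.90 and 8.49 in anaphase NT, 6.35 and 6.91 in prometaphase NT, 10.87 to 11.03 in fibroblasts and 5.06 and 4.83 in 2-cell controls. The 4 groups stood apart from each other. Over 2-cell controls the log2 difference was 3.75 ± 0.28 (SE) in anaphase NT (adjusted p = 5.20e-07, limma) and 1.69 ± 0.28 in prometaphase NT (adjusted p = 0.00559, limma). These comparisons share the 2-cell controls.

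The remaining roles moved less. Of 4 glycoproteins and elastic fibre genes none passed in anaphase NT: Fbln2, a microfibril-binding fibulin with 12.22 to 12.61 in fibroblasts, was detected in sample 19 (7.44) and not in sample 15 (4.31), and Eln, the elastic core protein, was not detected in either. Mfap5, a microfibril protein, was at 6.65 in anaphase NT 19, 6.98 or more in both prometaphase NT samples and 7.47 in 2-cell control 22, so the controls themselves (not detected in sample 23) spanned the transfer values. Among 5 matricellular genes only Fstl1, a secreted follistatin-like protein, passed (adjusted p = 0.0341, limma). It was at 6.36 in anaphase NT 15 and not detected in sample 19 (4.58), so the call rests on 1 of 2 samples. With sample 19 taken as read, anaphase NT was 1.73-fold above the lowest detected signal of 2-cell controls. Both prometaphase NT samples had Fstl1 detected (mean 5.12), without passing. Thbs1 was at 8.38 to 8.55 in fibroblasts and not detected in any transfer sample, whereas its relative Thbs2 was detected in anaphase NT 19 (6.33) and prometaphase NT 28 (5.60) without passing.

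Of the collagen processing genes, Pcolce, which enhances removal of the procollagen C-propeptide, was at 5.34 and 4.96 in anaphase NT, 4.81 and 5.01 in prometaphase NT and 10.03 to 10.26 in fibroblasts. It was not detected in 2-cell controls (4.52 and 4.32), with a bound of 1.38-fold for anaphase NT (adjusted p = 0.0230, limma). Loxl1, an elastin cross-linking oxidase, was present in 2-cell controls (7.15 and 7.27) as in anaphase NT (7.68 and 7.47) and did not pass (adjusted p = 0.453, limma).

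**Figure D2:**
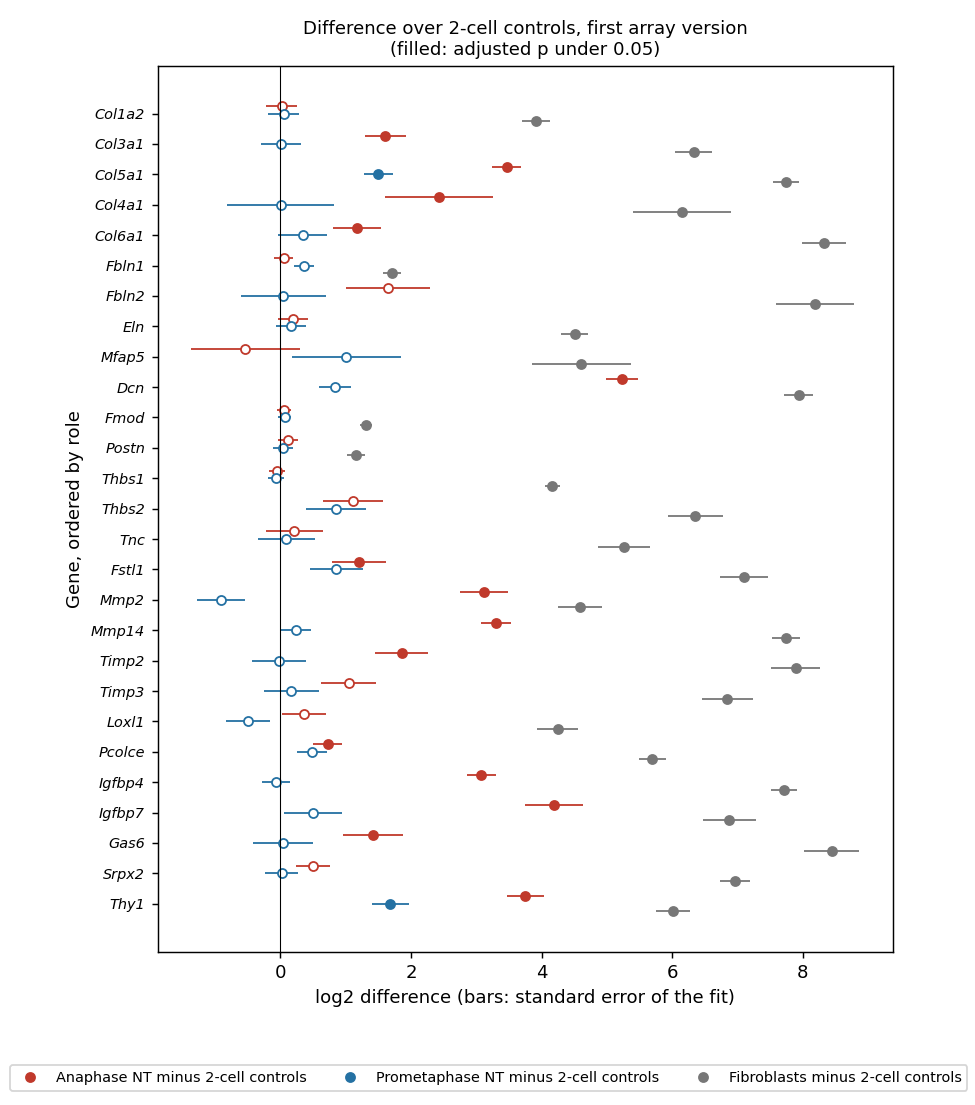
Log2 difference of each of the 27 members over 2-cell controls in anaphase NT (n = 2), prometaphase NT (n = 2) and fibroblasts (n = 3), with the standard error of the fit; filled points passed the adjusted p of 0.05. Where 2-cell controls were dark the plotted value depends on the background level; 14 anaphase points and 2 prometaphase points are filled, against all 27 fibroblast points.

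Prometaphase NT embryos had 2 of 27 members above 2-cell controls, Col5a1 and Thy1, where 1.63% of all genes were called higher, and the median member difference was 0.09 against -0.01 over all genes. At an unadjusted p below 0.05 the count was 6, in either direction, and the share of all genes at that threshold was not counted. Directly compared, anaphase NT exceeded prometaphase NT in 11 of 27 members and was lower in 0, where 19.4% of all genes were called higher and 21.1% lower. These 11 were the anaphase calls over 2-cell controls without Col6a1, Fstl1 and Pcolce. A second, slightly dimmer Col6a1 probe did pass between these transfer types (1.16 on the log2 scale, adjusted p = 0.0233, limma). The difference was 4.39 ± 0.24 (SE) on the log2 scale for Dcn (adjusted p = 6.03e-08, limma) and 4.03 ± 0.37 for Mmp2 (adjusted p = 2.73e-06, limma).

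All 27 members were lower in prometaphase NT than in fibroblasts, where 24.3% of all genes were called lower, with a median difference of -6.15. Mfap5 lay -3.59 ± 0.76 (SE) from the fibroblast level and Thy1 -4.32 ± 0.26, and Mfap5 was also present in 2-cell control 22.

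The share of the fibroblast level that each transfer sample held over 2-cell controls was computed on the linear scale for the 24 members called and at least 4-fold higher in fibroblasts. Its median was 1.13 and 2.45% in anaphase NT samples 15 and 19, and 0.0118 and 0.0937% in prometaphase NT samples 27 and 28. Over the 967 genes of the whole array that met the same rule the medians were 2.03 and 7.37%, and 0.209 and 0.281%, so each member median lay below that of fibroblast-enriched genes at large. On the log2 scale the median shares were 17.2% for anaphase NT and 2.06% for prometaphase NT, since a log scale weighs low levels more.

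The spread between members was wide. In anaphase NT samples 15 and 19, Mmp2 held 42.4 and 25.4% of the fibroblast level, Thy1 22.8 and 16.9%, Igfbp7 8.08 and 26.9% and Dcn 16.6 and 13.5%. Col4a1 held 1.02 and 22.3%, so its mean of 11.7% came from 1 sample. Col5a1, Mmp14 and Igfbp4 held between 3.21 and 4.94% in each sample. By the same measure, embryos with no fibroblast nucleus also gave large values for some members. M-phase zygotes had 39.3 to 45.9% for Mmp2, interphase zygotes 40.7 to 57% for Igfbp7, and genome-less embryo 49 had 47.1% for Col4a1. A share is thus no measure of fibroblast RNA for these members.

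Members bright in the donor held unlike shares. Mmp2 and Dcn held 33.9 and 15% on average in anaphase NT, whereas Gas6 and Col6a1 held 0.619 and 0.47%. Thy1, dimmer in fibroblasts than these 4, held 19.8%. In prometaphase NT the largest mean share was that of Thy1, 3.58%, followed by Mfap5 with 1.91% and Thbs2 with 1.13%.

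**Figure D3:**
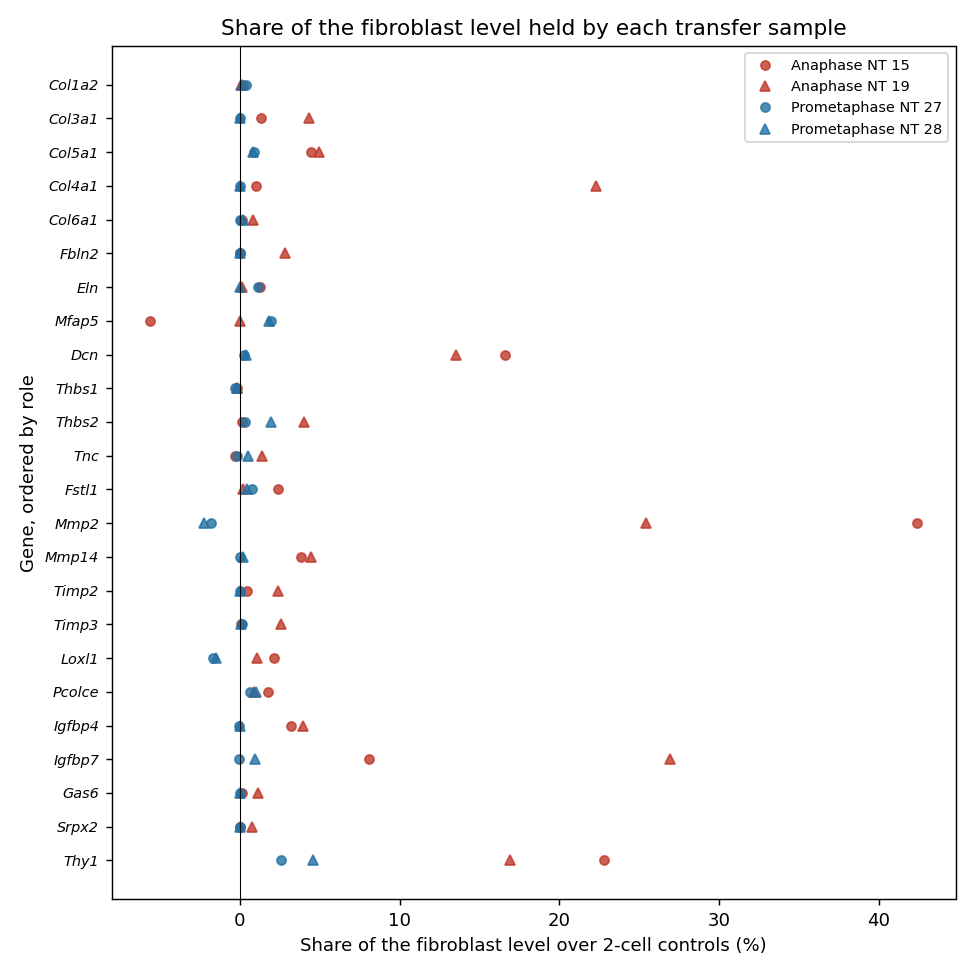
Share of the fibroblast level held over 2-cell controls, in percent on a linear axis, for 24 members (rows, ordered by role) in anaphase NT samples 15 and 19 and prometaphase NT samples 27 and 28. Mmp2 (42.4 and 25.4%), Thy1 (22.8 and 16.9%) and Dcn (16.6 and 13.5%) stand out in both anaphase samples, and no prometaphase point exceeds 4.56%. M-phase zygotes, not plotted, had 39.3 to 45.9% for Mmp2.

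M-phase zygotes held some of the same RNAs. They had Mmp2 at 11.83, 12.03 and 12.0, Igfbp7 at 9.36 to 9.39 and Col4a1 at 5.53 to 5.89. Against M-phase zygotes, a control added after the data were seen, anaphase NT was higher in 11 members and lower in 0, where 19.2% of all genes were called higher and 20.5% lower. The difference turned to -0.35 for Mmp2 (adjusted p = 0.435, limma) and -0.44 for Igfbp7 (adjusted p = 0.427, limma), and Col4a1 and Gas6 no longer passed (adjusted p = 0.366 and 0.168, limma). Loxl1 passed over M-phase zygotes only. Members higher than in both controls numbered 10: Col3a1, Col5a1, Col6a1, Dcn, Fstl1, Mmp14, Timp2, Pcolce, Igfbp4 and Thy1. Of these, Col6a1 and Fstl1 were detected in only 1 of 2 anaphase samples. The share of all genes higher than in both controls is not given here, so the count of 10 has no background beside it.

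Prometaphase NT was higher than M-phase zygotes in 4 members and lower in 2, where 22.9% of all genes were called higher and 22% lower. The 2 lower were Mmp2, by -4.38, and Igfbp7, by -4.13 (adjusted p = 2.52e-07 and 2.35e-06, limma). Against uncleaved, cleavage-inhibited embryos, 12 members were higher in anaphase NT and 2 in prometaphase NT, where 16.7 and 1.29% of all genes were called higher. In level, then, Mmp2 and Igfbp7 of prometaphase NT stood near 2-cell controls and those of anaphase NT near zygotes. Over 2-cell controls, 17.1 and 1.63% of all genes were called higher in anaphase and prometaphase NT. Of 7 oocyte markers measured, 5 were higher in anaphase NT (summed linear intensity 17400 to 18000, against 6340 to 7800 in 2-cell controls). In prometaphase NT 0 were higher (3950 to 6070). The part of retained egg RNA in the anaphase values of these genes was not tested.

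The pair of anaphase samples differed in more than single genes. Sample 15 had 12 of 27 members detected and sample 19 had 20, with 30.7 and 38.5% of all probes detected, and whether depth of signal set that gap was not tested. Of all genes, 17.1% were called higher in anaphase NT than in 2-cell controls. Macrophage markers, high in the donor cells, gave 0 of 10 higher there. Of these 10 markers, 1 to 2 were detected in anaphase NT, with a summed intensity of 88.4 to 894. Muscle markers did move with the anaphase result: 2 of 4, Acta1 and Tnni2, named after their values were seen, were higher than in 2-cell controls (log2 differences of 3.82 and 1.35), and 2 to 3 were detected, with a summed intensity of 361 to 482 in anaphase NT, against 77.4 to 84.6 in fibroblasts, 125 to 145 in M-phase zygotes and 15.6 to 34.4 in 2-cell controls. Their part in the result was not tested.

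Both anaphase samples lay on 1 slide, with a cleavage-inhibited and an M-phase zygote sample, and the 2-cell controls lay on another. On the slide that held 2-cell controls, prometaphase NT and a repeat hybridization of an anaphase NT sample, that repeat (closest to sample 19, the one with more members detected) exceeded the 2-cell mean by 5.13 for Dcn, 3.53 for Col5a1, 3.41 for Mmp14, 3.33 for Igfbp4, 3.33 for Thy1 and 2.90 for Mmp2. With slide as a fixed term, an alternative added after the data were seen, 7 members passed in anaphase NT against 2-cell controls, and 3 passed when these groups were fitted alone. Without 2-cell control 23 the count was 9.

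Other genes of the matrix pathway were counted too. Over 2-cell controls, 25.6% of all genes were called higher in fibroblasts, and 17.1% were called higher and 18.5% lower in anaphase NT. The share called lower in fibroblasts is not given here. Of 12 measured enzymes of collagen and matrix biosynthesis, 9 were higher in fibroblasts than in 2-cell controls, and in anaphase NT 3 were higher and 2 lower than in 2-cell controls, among them Loxl2, a lysyl oxidase relative, with a mean level of 5.802 in anaphase NT and not detected in 2-cell controls, and Crtap, a subunit of a collagen prolyl hydroxylation complex, which fell by 1.58 (limma adjusted p = 0.00269 and 0.0205). Of 19 matrix receptors, 10 were higher and 2 lower in fibroblasts, and 4 were higher and 4 lower in anaphase NT, where the syndecan Sdc2 averaged 7.24 in anaphase NT and was not detected in 2-cell controls, and the integrin chain Itgb5 fell by 3.13 (limma adjusted p = 0.000650 and 6.18e-05). Of 8 basement membrane proteins other than collagen IV, 5 were higher in fibroblasts and 1 in anaphase NT, Hspg2, the perlecan core protein, which averaged 7.39 in anaphase NT and was not detected in 2-cell controls (limma adjusted p = 0.000128).

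Regulators were counted in the same way. Of 14 TGF-beta pathway genes, 11 were higher in fibroblasts, and 3 were higher and 2 lower in anaphase NT. Of 14 fibroblast transcription factors, 12 were higher in fibroblasts and 1 in anaphase NT, Zeb1, by 1.62 (limma adjusted p = 0.00104). In prometaphase NT, where 1.63% of all genes were called higher, none of these 5 lists had a member higher than in 2-cell controls. On lists this short a count of 0 lies near that share. Of the 19 matrix receptors 1 was lower, and the share of all genes called lower there is not given here.

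On the second array version the recipients were blastomeres or MII oocytes, and no fibroblast array was hybridized, so levels there are compared within that version only. Blastomere NT embryos were higher than 4-cell controls in 3 of 13 members, where 2.09% of all genes were called higher, and lower in 0, where 0.743% were. The median member difference was 0.87, against -0.03 over all genes. Igfbp4 was at 6.53, 8.68 and 6.64 in blastomere NT arrays 1, 2 and 3 and not detected in 4-cell controls (5.05 and 4.81), at least 3.004-fold higher (adjusted p = 0.0305, limma, with n = 2 after arrays 1 and 3 were averaged). Mmp14 was at 6.65, 8.28 and 6.53 in blastomere NT and not detected in 4-cell controls (4.93 and 5.08), at least 2.62-fold higher (adjusted p = 0.0401, limma).

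Igfbp7 was at 7.41, 10.21 and 7.56 in blastomere NT and not detected in 4-cell controls (5.24 and 5.39), with a bound of 6.98-fold (adjusted p = 0.0334, limma). For these 3 genes every blastomere array lay above both controls. Thy1 was likewise at 6.07, 8.54 and 6.11 in blastomere NT and not detected in 4-cell controls, without passing (adjusted p = 0.0986, limma).

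Blastomere NT array 2 stood above arrays 1 and 3. It held Dcn at 9.45 against 5.68 (not detected) and 6.12 on arrays 1 and 3, Mmp2 at 8.58 where the others were not detected, and Gas6 at 8.54 against 6.83 and 6.54. All 13 members were detected on array 2 and 10 on each of the others. Without array 2 the count of members passing was 0, and without either 4-cell control it was also 0; without arrays 1 and 3 it was 6. Within the slide that held all blastomere arrays and 4-cell control 2, the differences were 2.82 for Igfbp4, 2.35 for Mmp14 and 3.45 for Igfbp7.

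Macrophage markers moved with these genes. In blastomere NT, 6 of 8 were higher than in 4-cell controls, where 2.09% of all genes were called higher. Of these 8 markers, 7 to 8 were detected. Their summed linear intensity was 5750, 17200 and 5320 on arrays 1, 2 and 3, against 289 and 248 in 4-cell controls. The part of macrophage RNA in the blastomere NT result was not tested.

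**Figure D4:**
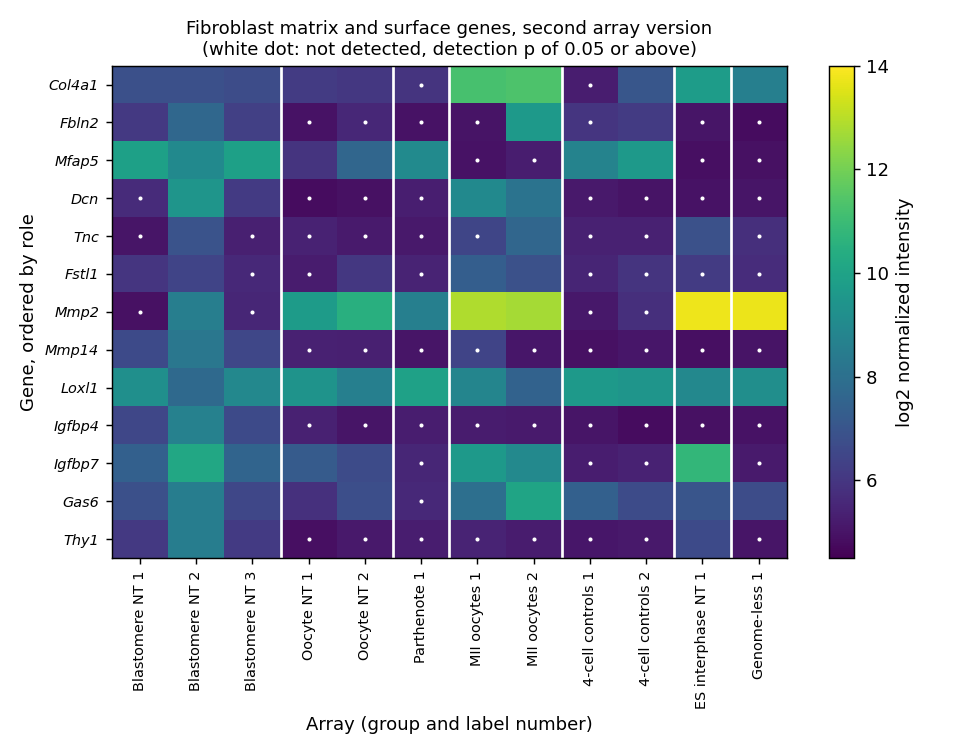
Log2 normalized intensity of the 13 members (rows, ordered by role) on each array of the second version (columns, by group), with repeat hybridizations left out; a white dot marks a probe not detected on that array. Blastomere NT array 2 is the brightest of the blastomere arrays in Dcn, Mmp2 and Igfbp7, and Mmp2 is bright in MII oocytes, ES interphase NT and genome-less embryos.

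In oocyte NT embryos none of 13 members passed against the parthenote sample, where 0.294% of all genes did in either direction, the count at an unadjusted p below 0.05 was also 0, and limma gave a smallest adjusted p of 0.558. That control is 1 sample, assumed to vary like the other groups, and a count of 0 at this size does not show that levels were alike. Igfbp7 was at 7.22 and 6.67 in oocyte NT and Gas6 at 5.82 and 6.79, and neither was detected in the parthenote sample (5.52 and 5.60). Mmp2 lay 1.51 ± 1.02 (SE) above the parthenote on the log2 scale. These 3 members were thus higher in both oocyte NT samples without passing. On average Col4a1, Fbln2, Tnc, Fstl1 and Mmp14 were higher too, by less. Mfap5, Loxl1, Dcn, Thy1 and Igfbp4 were lower, Mfap5 by -2.24 and Loxl1 by -0.95. With 1 control sample, such an order of samples carries little weight. Igfbp4, Mmp14, Thy1 and Dcn were not detected in oocyte NT samples, at 5.36 and 5.04, 5.37 and 5.35, 4.89 and 5.14, and 4.83 and 4.92.

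Against 4-cell controls 1 member was higher in oocyte NT, where 6.82% of all genes were called higher. This was Mmp2, at 9.70 and 10.5 in oocyte NT and not detected in 4-cell controls (5.13 and 5.79), at least 16.7-fold higher (adjusted p = 0.00914, limma). The call was lost without oocyte NT sample 1 and without either 4-cell control. In MII oocytes Mmp2 was at 12.87 and 12.71, and the parthenote sample held 8.59.

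**Figure D5:**
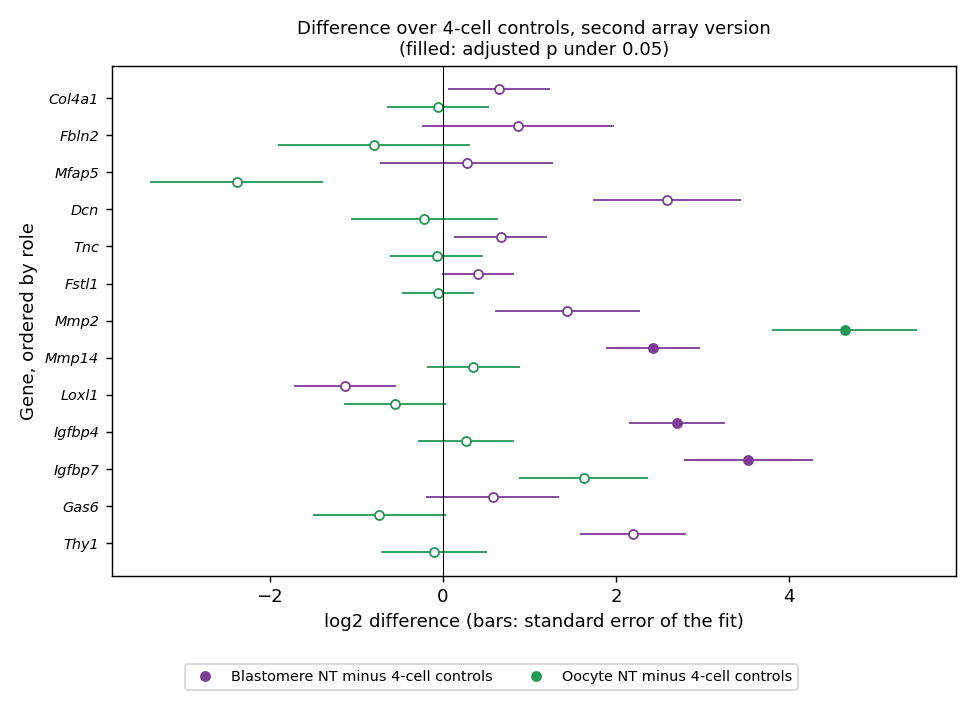
Log2 difference of each of the 13 members over 4-cell controls in blastomere NT (n = 2) and oocyte NT (n = 2), with the standard error of the fit; filled points passed the adjusted p of 0.05. Igfbp4, Mmp14 and Igfbp7 are filled for blastomere NT and Mmp2 alone for oocyte NT.

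Oocyte NT embryos were lower than MII oocytes in 7 of 13 members and higher in 0, where 26.6% of all genes were called lower and 26.2% higher. Col4a1 was at 6.14 and 6.04 in oocyte NT against 11.22 and 11.35 in MII oocytes, a difference of -5.19 ± 0.59 (SE; adjusted p = 3.29e-05, limma). Dcn was not detected in oocyte NT and was at 8.99 and 8.11 in MII oocytes, where it was at least 6.64-fold higher (adjusted p = 0.00384, limma). Tnc, Fstl1, Mmp2, Igfbp7 and Gas6 were the other members lower in oocyte NT. The MII arrays differed in Fbln2, which was not detected on array 1 and at 9.62 on array 2, and neither of 2 cumulus and granulosa markers measured was detected on them. Without oocyte NT sample 1 the count was 2, and without MII oocyte sample 2 it was 4.

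Set directly against oocyte NT, blastomere NT was higher in Mmp14, Igfbp4 and Thy1 (limma adjusted p = 0.0375, 0.0229 and 0.0407) and lower in Mmp2, by -3.20 ± 0.84 (SE; limma adjusted p = 0.0375), where 4.15% of all genes were called higher and 5.13% lower. Leaving out either oocyte NT sample, or fitting these groups alone, left a count of 0, and leaving out blastomere NT array 2 left 1.

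Across transfer types, Igfbp4 and Mmp14 were not detected on any zygote, oocyte or control embryo array of either version. Igfbp4 was at least 6.78-fold above its control in anaphase NT and at least 3.004-fold in blastomere NT, and was not detected in prometaphase or oocyte NT. Mmp14 was at least 7.52-fold above its control in anaphase NT and at least 2.62-fold in blastomere NT, was detected in 1 of 2 prometaphase NT samples (4.77) and was not detected in oocyte NT. Dcn was, by its brighter probe, at least 27.5-fold above its control in anaphase NT, low in prometaphase NT, not detected in oocyte NT and unequal among blastomere arrays, but MII oocytes held it and 1 interphase zygote array read it at 4.59. Values from the 2 array versions were normalized separately and no test joins them.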

How the data were processed

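RNA was measured on 37 single-colour mouse bead arrays of a pair of versions, 22 and 15 arrays, on 8 slides. Per the labels, the RNA was isolated with PicoPure and amplified with biotin. The deposited tables hold an average bead intensity per probe, not normalized between arrays, from GenomeStudio per the submitters' processing notes, and, as the authors deposited it, a detection p-value for each probe on each array. The series matrix, also deposited, holds intensities, some below 0, and served as an alternative. Its columns were straight-line transforms of the unnormalized ones, except that of the cleavage-inhibited repeat hybridization on the first version (r = 0.996, Spearman's rho = 0.933), and that column entered no comparison of groups.

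Each version was normalized alone with neqc (limma 3.58.1, R 4.3.3; offset 16, background from detection p-values, quantile, log2). The brightest probe stood for a gene. Of 24613 and 25697 probes, 14898 and 15052 had 1 symbol, the rest none. A group-means model per version (19 and 14 samples, 10 and 5 residual degrees of freedom) was tested with eBayes (trend), two-sided, with Benjamini-Hochberg adjustment over all genes. The number of arrays limits precision. A gene dark on every array of a group is given as a lower bound, from the mean of the bright group over the larger of the lowest detected signal and its own signal in the dark group. That mean takes undetected samples of the bright group as read, so for Col4a1, Col6a1, Gas6 and Fstl1 in anaphase NT the value is no strict bound. The model was tested on simulated data.

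The fit of the first version used no repeat hybridization; on the second they formed groups of their own. Blastomere NT arrays 1 and 3 differed by an SD of 0.210 log2, against 0.154 to 0.185 for repeat hybridizations and 0.196 for fibroblasts 1 and 2, which the labels call biological duplicates. For 4-cell control 2 the slide was read from its description, which its title contradicts. Members, gene lists, roles and tests were chosen with earlier results of these data known. All 42 members could be named, with values by sample for those called in a transfer comparison; of other lists, genes with the smallest adjusted p in anaphase NT against 2-cell controls. Promoter sequences are RefSeq's (GRCm38.p6).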

Additional observations from a re-analysis of the deposited data

Results flagged for a closer look

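The difference over 2-cell controls was not the same in the zygote transfer types: 11 members were higher in anaphase NT than in prometaphase NT by the test of that difference. Of all genes, 19.4% were called higher there. Between blastomere NT and oocyte NT 4 members differed, 3 higher in blastomere NT and Mmp2 lower. Of all genes, 4.15% were called higher there and 5.13% lower, and with these groups fitted alone the member count was 0.

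Signal above the control embryos also appeared in arrays that entered no comparison. In embryos made with ES cell nuclei, which carry no fibroblast genome, Mmp2 was at 11.45 and Igfbp7 at 10.44 on the first array version, and Mmp2 was at 13.75, Igfbp7 at 10.8 and Col4a1 at 9.77 on the second. In embryos without any genome, Col4a1 was at 9.32, Igfbp7 at 9.54 and Mmp2 at 10.14 on the first version. On the second, Mmp2 was at 13.74 and Col4a1 at 8.60. The arrays of a kind did not always match. Igfbp7 was not detected in genome-less embryos on the second version (5.20), nor Col4a1 in ES interphase NT on the first (4.22). Mmp2, Igfbp7 and Col4a1 are members that zygotes and MII oocytes held too. Each kind of embryo had 1 array per version, and on the first version these arrays had the fewest probes detected, 20.8% for ES interphase NT and 18.8% for the genome-less embryos.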

How the results depend on the processing

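No paired analysis was possible because the labels give the groups no shared replicate numbers; equal numbers are accession order only. The 27 members higher in fibroblasts, the 27 lower in either transfer type than in fibroblasts, and the count of 0 for oocyte NT against the parthenote kept their values under every alternative run that left out a sample, and the count of 0 under every alternative. Other counts moved. In anaphase NT against 2-cell controls 14 members became 7 with slide as a fixed term (added after the data were seen) and 3 with these groups fitted alone, and leaving out 1 sample gave 9 to 16, the 9 without 2-cell control 23. In prometaphase NT 2 became 0 with 75th percentile scaling, 0 with the groups alone and 6 against M-phase zygotes (added after the data were seen), and leaving out 1 sample gave 1 to 2, the 1 without sample 28. Anaphase against prometaphase NT gave 6 with the fixed slide term, 4 with the groups alone and 9 to 16 leaving out 1 sample. Against M-phase zygotes the anaphase difference turned to -0.35 for Mmp2 and -0.44 for Igfbp7, which those zygotes held.

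On the second version, blastomere NT against 4-cell controls went to 0 under series matrix values, the fixed slide term and the groups alone, to 1 without a detection filter and to 1 without a variance trend, with 0 to 6 leaving out 1 sample. Oocyte NT against MII oocytes gave 3 under series matrix values and 2 to 5 leaving out 1 sample. Oocyte NT against 4-cell controls gave 0 with the fixed slide term, 3 with the groups alone and 0 to 1 leaving out 1 sample. Blastomere against oocyte NT gave 1 under series matrix values, 1 with no detection filter, 1 with no variance trend, 7 with slide as a random block, 0 with the fixed slide term, 0 with the groups alone and 0 to 5 leaving out 1 sample. The median share in prometaphase NT turned to -0.137% with 75th percentile scaling and was 2.06% on the log2 scale; in anaphase NT it was 17.2% on the log2 scale. Leaving out 1 sample gave 1.13 to 2.45% in anaphase NT and 0.0118 to 0.117% in prometaphase NT. The cause of these shifts was not tested. Of 123 single gene results, 41 lost their call under at least 1 alternative and 2 turned direction.

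Groups of 1 to 3 arrays, the gap between anaphase NT samples, and dark controls that give bounds in place of folds limit every count above.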
